A study of Homo sapiens with 8 samples.

Results

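The zinc finger (ZNF) genes of human chromosome 19 were taken as the protein-coding chromosome 19 genes whose symbol is ZNF followed by a number, in RefSeq annotation of GRCh38.p14. This rule gave 250 genes of the 1451 protein-coding genes on the chromosome, and 267 further ZNF genes lay on other chromosomes. The rule used symbols and positions only. The 4 read-through or divergent entries carry a hyphen (ZNF559-ZNF177, ZNF816-ZNF321P, ZNF765-ZNF761 and ZNF470-DT). The read-through entries share an end with another member. ZNF470-DT, a divergent entry kept by the symbol rule, starts within 1 kb of ZNF470 on the opposite strand. These entries are thus not independent of their partners. Some other members that start close together on opposite strands also share 1 peak, such as ZNF490 and ZNF791.

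Most proteins of this family bind DNA through tandem C2H2 zinc fingers, and many also carry a KRAB domain. The KRAB domain recruits TRIM28 (KAP1), which brings the H3K9 methyltransferase SETDB1 and HP1 proteins to the bound site and keeps transposable elements silent. The family grew by tandem duplication, which left long runs of related genes on chromosome 19, and the exons that encode the finger arrays are known to carry H3K9me3 in many human cell types. Promoters of the same genes are usually CpG-rich and active.

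Open chromatin was mapped by ATAC-seq, in which the transposase Tn5 inserts adapters into accessible DNA, in the established line NCI-H295R, which derives from a human adrenocortical carcinoma. The EZH2i cells had 62 µM EPZ-6438 for 96 h, an inhibitor of EZH2, the H3K27 methyltransferase of Polycomb repressive complex PRC2. The CBPi cells had 26 µM PRI-724 for 96 h, an inhibitor of the coactivator CBP. Both doses are IC-50 doses per the labels. The FSK cells had vehicle for 48 h and then 10 µM forskolin for 48 h, which switches on adenylyl cyclase and so increases cAMP. The vehicle cells had DMSO for 96 h. Each group had 2 libraries, labelled as biological replicates, and all 8 libraries came from the same line. The deposited data were 1 peak list per group, with 41086 peaks for EZH2i, 47161 for CBPi, 51095 for FSK and 61016 for vehicle. Because each group is a single list, no spread between replicates and no depth could be measured, and no p-value was computed. Shares carry Wilson 95% intervals, which treat peaks or genes as independent and cover counting error only. Of 11 adrenocortical marker genes fixed as a check of the line, 8 had a peak within 1 kb of an annotated end in the EZH2i list, 8 in CBPi, 9 in FSK and 9 in vehicle. NR5A1, the steroidogenic master regulator, and the steroidogenic genes STAR, CYP11A1 and CYP17A1 had a peak in each list, and HSD3B2 and CYP11B1 had none in any. None of 3 endothelial markers had a peak in any list, 2 of 3 fibroblast markers (COL1A1 and PDGFRA) and 1 of 3 chromaffin markers (CHGA) had a peak in each, and the immune marker CD3E had a peak in EZH2i and CBPi only.

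The 250 bases upstream of the annotated start are shown for 6 members that later results turn on, from RefSeq on GRCh38.p14. They are written 5′ to 3′ on the gene's own strand. In ZNF737 (chr19:20565782-20566031, minus strand), ZNF580 (chr19:55640752-55641001, plus strand) and ZNF787 (chr19:56121296-56121545, minus strand), capitals mark matches to CCGGAAG, the core bound by ETS-family factors, read on either strand. ZNF737 had 1 of the smallest vehicle peaks, ZNF580 had 1 of the 4 most peak-rich windows, and ZNF787 had the largest vehicle peak of the family, where 2 overlapping matches on opposite strands form a palindrome. In ZNF426 (chr19:9538646-9538895, minus strand), ZNF121 (chr19:9584505-9584754, minus strand) and ZNF561 (chr19:9621233-9621482, minus strand), capitals mark TGACGTCA, the cAMP response element (CRE) bound by CREB-family factors. These 3 are neighbours, and their vehicle gene-end peak was absent or below the median area of that list.
ZNF737: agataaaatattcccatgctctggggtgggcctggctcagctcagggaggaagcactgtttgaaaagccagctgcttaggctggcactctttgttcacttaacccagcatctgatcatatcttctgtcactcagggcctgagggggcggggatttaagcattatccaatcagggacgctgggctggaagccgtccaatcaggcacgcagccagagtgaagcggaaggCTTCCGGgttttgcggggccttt
ZNF580: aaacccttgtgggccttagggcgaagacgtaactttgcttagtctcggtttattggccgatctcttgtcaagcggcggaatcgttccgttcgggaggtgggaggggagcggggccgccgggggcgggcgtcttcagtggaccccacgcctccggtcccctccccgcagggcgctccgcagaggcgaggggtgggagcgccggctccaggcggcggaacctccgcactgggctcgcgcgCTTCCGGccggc
ZNF787: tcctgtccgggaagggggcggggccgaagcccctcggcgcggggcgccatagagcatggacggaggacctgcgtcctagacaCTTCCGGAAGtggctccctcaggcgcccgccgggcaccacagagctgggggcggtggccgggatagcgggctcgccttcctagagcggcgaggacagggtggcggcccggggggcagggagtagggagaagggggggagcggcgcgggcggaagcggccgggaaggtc
ZNF426: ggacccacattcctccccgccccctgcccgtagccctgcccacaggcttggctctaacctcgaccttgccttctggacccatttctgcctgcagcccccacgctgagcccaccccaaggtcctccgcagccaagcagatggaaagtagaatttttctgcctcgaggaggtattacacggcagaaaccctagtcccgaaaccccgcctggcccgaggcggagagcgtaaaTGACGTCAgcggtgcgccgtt
ZNF121: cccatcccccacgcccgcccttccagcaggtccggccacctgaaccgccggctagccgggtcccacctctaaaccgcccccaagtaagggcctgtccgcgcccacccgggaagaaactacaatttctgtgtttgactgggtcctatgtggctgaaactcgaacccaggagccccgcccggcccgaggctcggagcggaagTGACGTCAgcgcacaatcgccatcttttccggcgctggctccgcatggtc
ZNF561: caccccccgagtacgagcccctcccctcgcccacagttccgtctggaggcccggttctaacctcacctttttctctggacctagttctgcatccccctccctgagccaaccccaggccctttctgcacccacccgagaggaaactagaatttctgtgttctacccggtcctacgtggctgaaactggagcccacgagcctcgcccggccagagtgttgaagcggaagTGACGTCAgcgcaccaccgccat

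A peak was assigned to the family when its summit lay inside a member or within 10 kb of it. This window held 263 peaks in the EZH2i list, 292 in CBPi, 275 in FSK and 289 in vehicle. Gene-end peaks, those no more than 1 kb from the start or the far end of a member, numbered 184 in EZH2i, 197 in CBPi, 184 in FSK and 195 in vehicle. Peaks within 1 kb of the end of a neighbouring gene outside the family numbered 15 in EZH2i, 16 in CBPi, 13 in FSK and 16 in vehicle and were kept apart. The remaining 64 peaks in EZH2i, 79 in CBPi, 78 in FSK and 78 in vehicle are called other peaks. The background was the peaks of the same windows around the 1201 other protein-coding genes of chromosome 19, outside every ZNF window. Gene-end peaks made up 70.0% of the ZNF window peaks in EZH2i, 67.5% in CBPi, 66.9% in FSK and 67.5% in vehicle. In the background they made up 57.3% in EZH2i, 50.8% in CBPi, 56.0% in FSK and 53.8% in vehicle.

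Most members carried open chromatin at an end, and in nearly all cases it was the transcription start. A gene-end peak was listed for 184 of 250 members in EZH2i (73.6%), 196 in CBPi (78.4%), 188 in FSK (75.2%) and 196 in vehicle (78.4%, interval 72.9 to 83.1). Of the 1201 other genes of the chromosome, 702 had a gene-end peak in EZH2i (58.5%), 740 in CBPi (61.6%), 693 in FSK (57.7%) and 713 in vehicle (59.4%, interval 56.6 to 62.1). The intervals of the ZNF genes and of the other genes did not overlap in any list. ZNF genes of other chromosomes were higher still, with 222 of 267 in EZH2i (83.1%), 233 in CBPi (87.3%), 222 in FSK (83.1%) and 230 in vehicle (86.1%), so the high share was not confined to chromosome 19. Over all 19974 protein-coding genes the share was 65.2% in EZH2i, 67.3% in CBPi, 65.2% in FSK and 67.6% in vehicle.

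Strand was known for 219 members and 966 other genes of the chromosome, which separates the start from the far end. The start had a peak in 164 of the 219 members in EZH2i (74.9%), 174 in CBPi (79.5%), 168 in FSK (76.7%) and 174 in vehicle (79.5%, interval 73.6 to 84.3). For the other genes the start had a peak in 539 of 966 in EZH2i (55.8%), 570 in CBPi (59.0%), 539 in FSK (55.8%) and 547 in vehicle (56.6%, interval 53.5 to 59.7). At the far end, where the finger-encoding exon usually lies, the order was turned round. The count takes any peak within 1 kb of the far end. It can therefore include the start of a neighbouring gene or, in a short gene, its own start. A far-end peak was listed for 7 members in EZH2i (3.20%), 10 in CBPi (4.57%), 7 in FSK (3.20%) and 8 in vehicle (3.65%, interval 1.86 to 7.04). The other genes had 144 far-end peaks in EZH2i (14.9%), 171 in CBPi (17.7%), 144 in FSK (14.9%) and 155 in vehicle (16.0%, interval 13.9 to 18.5). ZNF genes were thus above the other genes of the chromosome at starts and below them at far ends in each of the 4 lists, with intervals that did not overlap. Far-end shares in vehicle were also low for ZNF genes of other chromosomes (6.42%, interval 3.86 to 10.5) and lay at 10.5% over all protein-coding genes.

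**Figure D1:**
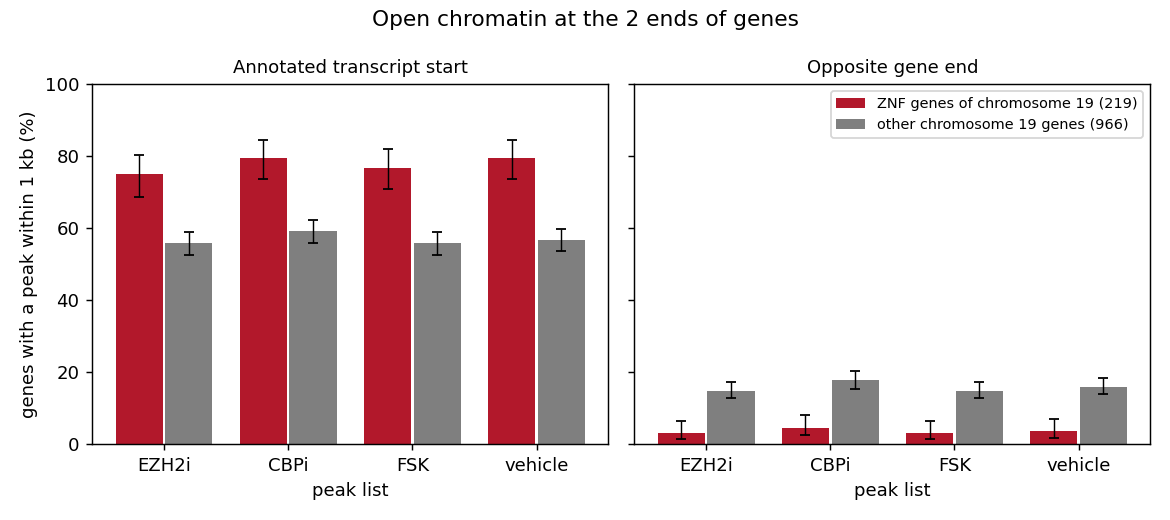
Share of genes (%) with a peak within 1 kb of the annotated start (left) and of the far end (right) in each peak list, for ZNF genes and other genes of chromosome 19; bars are shares and error bars are Wilson 95% intervals. In vehicle, 79.5% of ZNF starts and 3.65% of ZNF far ends had a peak, against 56.6% and 16.0% for other genes.

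Summits sat just upstream of the start. The median summit position was -45.0 bp from the start in EZH2i, -42.5 bp in CBPi, -41.0 bp in FSK and -48.0 bp in vehicle, where negative values are upstream. In vehicle the middle 50% of the 175 positions ran from -85.5 to -3.00 bp, and 163 lay within 500 bp. RefSeq promoter entries list 271 starts for the 219 members, since some genes have several. A peak within 1 kb of any listed start was found for 185 members in EZH2i (84.5%), 193 in CBPi (88.1%), 186 in FSK (84.9%) and 192 in vehicle (87.7%). Of the 54 members with no vehicle gene-end peak, 44 had a listed start, and 19 of these had a peak at such a start inside the gene or its flank.

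Members usually had a single peak. The median number of peaks per member window was 1.00 in each list, and 30 members in EZH2i, 21 in CBPi, 29 in FSK and 23 in vehicle had none. At least 2 peaks were listed for 85 members in EZH2i, 103 in CBPi, 94 in FSK and 99 in vehicle. The richest windows in vehicle were those of ZNF536 with 12 peaks, ZNF581 with 6, ZNF580 with 5 and ZNF69 with 5. ZNF580 and ZNF581 overlap, so their windows share peaks. A gene-end peak stood in all 4 lists for 181 members and in none for 50. Among the 181 were ZNF91 and ZNF93, known in primates to repress SVA and LINE-1 elements, and ZNF274, which binds the finger-encoding exons of other ZNF genes and recruits SETDB1. These 3 were chosen after their values were known.

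The size of each peak was the authors' area of significance, summed along the peak, which grows with width and depth and is therefore read only within a list. Counted by member, the largest gene-end peak had a median area of 935.6 in EZH2i, 1514.2 in CBPi, 926.1 in FSK and 1343.7 in vehicle. Areas of 1 gene given below for several lists are therefore not a measure of change at that gene. ZNF gene-end peaks were of middling to upper size with few extremes. In vehicle their median area was 1275.3 (middle 50% from 778.6 to 1761.1, n = 195), against 1197.9 (579.3 to 2131.1, n = 672) for gene-end peaks of the other chromosome 19 genes. Median widths were 842.0 bp for ZNF genes and 891.5 bp for the other genes. Of the ZNF peaks, 86.2% lay above the median area of the whole vehicle list, against 74.9% of the background. In the top 10% of the list stood 6 ZNF peaks (3.08%) and 93 background peaks (13.8%). Between the 70th and 80th percentile of the list lay 29.7% of ZNF peaks and 19.2% of background peaks. In vehicle the family was thus narrower in range than the background on both sides. In the top 10% of the EZH2i list stood 1.63% of ZNF peaks and 14.4% of background peaks. Above that list's median stood 76.1% and 75.9%, so the lower side hardly differed there. In CBPi 86.8% and 78.2% lay above the list median, and in FSK 79.3% and 72.9%. The ZNF median rank percentile was 74.6 in vehicle, 65.1 in EZH2i, 72.3 in CBPi and 68.8 in FSK. Background medians were 73.1, 69.8, 73.9 and 70.7 in the same order.

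**Figure D2:**
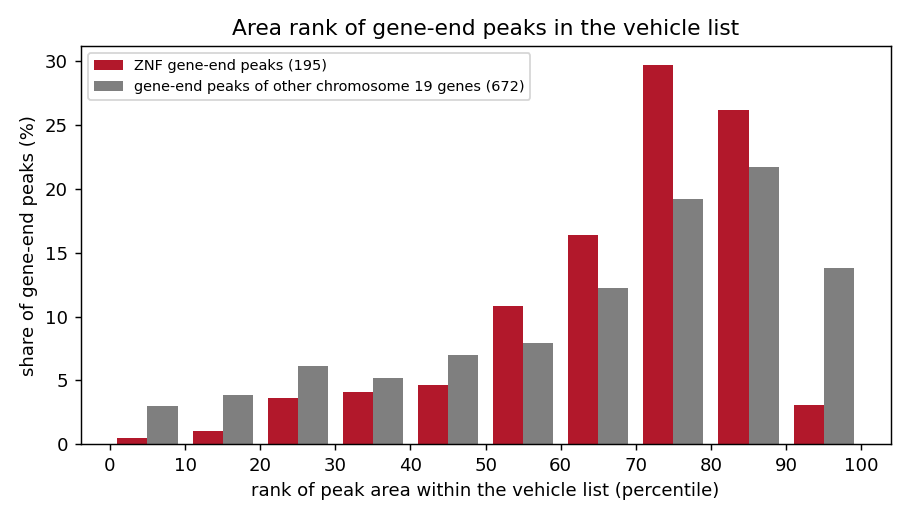
Share of gene-end peaks (%) in each 10% step of the vehicle list, ranked by area from smallest (0) to largest (100), for ZNF genes and other genes of chromosome 19. ZNF peaks pile up between the 70th and 90th percentile, and 3.08% of them against 13.8% of the background fall in the top 10%.

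The largest vehicle gene-end peak of the family was that of ZNF787, whose upstream sequence with the palindromic ETS match is shown above. Its area was 3269.1 in EZH2i, 5255.4 in CBPi, 4519.4 in FSK and 4538.4 in vehicle, and its rank lay between the 94.0th percentile in EZH2i and the 97.7th in FSK. The next largest in vehicle were ZNF524 with an area of 3965.6, ZNF667 with 3422.4, ZNF254 with 3374.7, ZNF146 with 3074.4 and ZNF471 with 3064.7. ZNF146 encodes a protein made almost only of zinc fingers. All 6 kept a gene-end peak in each treated list, at the 87.5th percentile or higher. At the far side of the range, the smallest vehicle peak was that of ZNF737, with an area of 241.9. ZNF93 had an area of 1703.8 in EZH2i, 2676.0 in CBPi, 1923.5 in FSK and 2527.7 in vehicle, where it ranked at the 88.2th percentile. ZNF91 had 1206.2 in EZH2i, 1749.3 in CBPi, 1424.3 in FSK and 1760.8 in vehicle, at the 81.6th percentile. ZNF274 had 1015.4 in EZH2i, 1444.9 in CBPi, 693.4 in FSK and 1173.4 in vehicle, at the 72.6th percentile.

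Nearly every open ZNF start stayed in the list after each treatment. A vehicle peak counted as kept when any peak of the treated list overlapped it by 1 bp or more. Of the 195 vehicle gene-end peaks of ZNF genes, 184 were kept in EZH2i (94.4%, interval 90.2 to 96.8), against 91.1% of gene-end peaks over all chromosomes. In CBPi 193 were kept (99.0%, interval 96.3 to 99.7), against 95.5% over all chromosomes. In FSK 184 were kept (94.4%, interval 90.2 to 96.8), against 91.4% over all chromosomes. Of the 672 gene-end peaks of other chromosome 19 genes, 620 were kept in EZH2i (92.3%), 662 in CBPi (98.5%) and 621 in FSK (92.4%). The difference, ZNF minus other genes of the chromosome, was 2.10 percentage points in EZH2i (interval -2.45 to 5.45), 0.462 in CBPi (-2.26 to 1.90) and 1.95 in FSK (-2.59 to 5.29). Each interval held 0, so a difference between ZNF ends and other ends of the chromosome was not resolved. The sign changed with several settings. With the background weighted to the same area bins the difference was -1.44 in EZH2i, -0.267 in CBPi and -1.36 in FSK. With transcript starts alone it was -0.533 in EZH2i, -0.382 in CBPi and -0.539 in FSK. With only the larger-area 50% of each list it was -8.51 in EZH2i (interval -15.3 to -2.82) and -5.53 in FSK (-12.3 to 0.107).

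Away from gene ends, fewer peaks were kept. Of the 78 other peaks in the ZNF windows, 60 were kept in EZH2i (76.9%, interval 66.4 to 84.9), 71 in CBPi (91.0%, 82.6 to 95.6) and 66 in FSK (84.6%, 75.0 to 91.0). Over all chromosomes 54.2% of non-end peaks were kept in EZH2i, 62.0% in CBPi and 63.6% in FSK. Among the 576 other peaks of the chromosome 19 background, 438 were kept in EZH2i (76.0%), 524 in CBPi (91.0%) and 445 in FSK (77.3%). The difference, ZNF minus background, was 0.881 percentage points in EZH2i (interval -10.1 to 9.63), 0.0534 in CBPi (-8.61 to 5.31) and 7.36 in FSK (-2.78 to 14.7). A single member, ZNF536, accounted for 6 of the 18 other peaks lost in EZH2i, 6 of the 7 lost in CBPi and 6 of the 12 lost in FSK. With its window left out, 55 of 67 other peaks were kept in EZH2i (82.1%), 66 of 67 in CBPi (98.5%) and 61 of 67 in FSK (91.0%). The difference from the background then was 6.05 points in EZH2i (interval -5.28 to 14.3), 7.54 in CBPi (0.722 to 10.4) and 13.8 in FSK (4.00 to 19.8), so that the CBPi and FSK intervals no longer held 0. Leaving out ZNF536 was chosen after seeing the data. The ZNF and background sets also differ in kind. Of the 78 ZNF other peaks, 43 lay within 1 kb of a listed transcript start, against 92 of the 576 background ones. Such peaks were mostly kept in both sets, so these differences do not compare like peaks. Away from listed starts, with ZNF536 kept in, the kept share was lower for ZNF windows than for the background in each list. With the background weighted to the same area bins and ZNF536 kept in, the differences were -5.33, -2.90 and 1.73 points for EZH2i, CBPi and FSK.

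**Figure D3:**
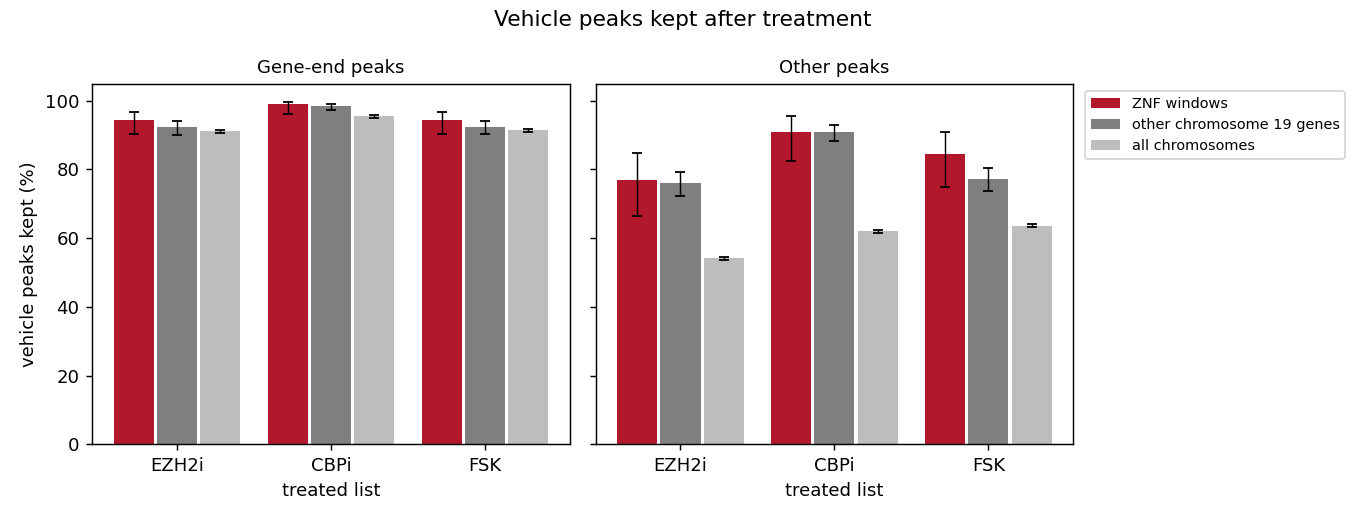
Share of vehicle peaks (%) kept in each treated list, for gene-end peaks (left) and other peaks (right) of ZNF genes, of other chromosome 19 genes and of all chromosomes; error bars are Wilson 95% intervals. ZNF gene-end peaks were kept at 94.4% in EZH2i, 99.0% in CBPi and 94.4% in FSK.

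Other peaks that coincide with a listed start were nearly all kept. Of the 78 vehicle other peaks, 43 lay within 1 kb of a transcript start listed for some gene, and 42 of these were kept in EZH2i, 43 in CBPi and 42 in FSK. The background near listed starts was also mostly kept, with 82 of 92 in EZH2i (89.1%), 91 in CBPi (98.9%) and 84 in FSK (91.3%). Of the 35 elsewhere, 18 were kept in EZH2i (51.4%, interval 35.6 to 67.0), 28 in CBPi (80.0%) and 24 in FSK (68.6%, interval 52.0 to 81.4). In the background 356 of 484 peaks away from listed starts were kept in EZH2i (73.6%), 433 in CBPi (89.5%) and 361 in FSK (74.6%). In EZH2i the ZNF interval lay below that of the background (69.5 to 77.3), and in CBPi and FSK the intervals overlapped. The peaks of ZNF536 are part of the 35, and these shares were not recomputed without them.

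What was lost at ZNF gene ends was small. The 11 ZNF gene-end peaks lost in EZH2i had vehicle areas of 241.9 to 579.9, the 2 lost in CBPi 241.9 to 318.1, and the 11 lost in FSK 252.2 to 579.9. None of them exceeded the median area of the vehicle list, 581.4. Every ZNF gene-end peak with a vehicle area of at least 681.2, 159 in number, was kept in each treated list, and so were all 41 other peaks of that size. Background peaks of that size were nearly all kept too, with 467 of 469 gene-end peaks in EZH2i, 469 in CBPi and 468 in FSK, and 239 of 244 other peaks in EZH2i, 244 in CBPi and 243 in FSK. Of the 13 ZNF gene-end peaks in the smallest of 5 area bins, 5 were kept in EZH2i, 11 in CBPi and 6 in FSK, against 46, 83 and 55 of 92 background gene-end peaks in EZH2i, CBPi and FSK. A peak can leave a list by falling just under the caller's threshold, and the lists differ in length, so absence from a list is not a measure of closing.

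Few peaks were gained, meaning treated-list peaks with no vehicle peak under them. At ZNF gene ends 0 of 184 peaks were gained in EZH2i (interval 0 to 2.05%), 4 of 197 in CBPi (2.03%, interval 0.792 to 5.10) and 0 of 184 in FSK (interval 0 to 2.05%). The 4 in CBPi lay at ZNF317, ZNF426, ZNF536 and ZNF649, with areas of 423.0, 371.5, 275.7 and 314.5. At the ends of other chromosome 19 genes 17 of 632 were gained in EZH2i (2.69%), 53 of 702 in CBPi (7.55%, interval 5.82 to 9.74) and 33 of 661 in FSK (4.99%, interval 3.58 to 6.93). Over all ZNF window peaks 2 of 263 were gained in EZH2i (0.760%, interval 0.209 to 2.73), against 6.98% of the whole EZH2i list and 65 of 1103 in the chromosome 19 background (5.89%, 4.65 to 7.44). In CBPi 16 of 292 were gained (5.48%, interval 3.40 to 8.71), against 10.7% of the whole list and 226 of 1381 in the background (16.4%, 14.5 to 18.4). In FSK 9 of 275 were gained (3.27%, interval 1.73 to 6.10), against 15.9% of the whole list and 116 of 1180 in the background (9.83%, 8.26 to 11.7). In all 3 treated lists the interval of the ZNF windows lay below that of the background windows. With all lists cut to the same length the gained share was 4.18% in EZH2i, 9.96% in CBPi and 3.23% in FSK for ZNF windows, against 16.7% in EZH2i, 26.3% in CBPi and 12.9% in FSK for the background, again without overlap of the intervals. In the larger-area 50% of each list the FSK intervals overlapped, at 2.53% (1.08 to 5.77) for ZNF windows and 6.70% (5.09 to 8.78) for the background. Among other peaks alone the shares were 3.12% in EZH2i (interval 0.861 to 10.7), 13.9% in CBPi (7.96 to 23.2) and 11.5% in FSK (6.19 to 20.5), against 10.2% in EZH2i (7.77 to 13.3), 25.5% in CBPi (22.3 to 28.9) and 16.0% in FSK (13.1 to 19.4) for the background. For the ZNF windows the share was the lower one in each list, and the intervals overlapped in each. At gene ends the ZNF and background intervals overlapped in EZH2i and did not overlap in CBPi or FSK.

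Counted by gene, 12 of 196 members lost their gene-end peak in EZH2i (6.12%, interval 3.54 to 10.4), where 4.60% of all genes with a vehicle peak did. In CBPi 3 did (1.53%), against 2.35% of all genes, and in FSK 9 did (4.59%), against 4.94% of all genes. Other chromosome 19 genes lost theirs in 29 of 713 cases in EZH2i (4.07%), 6 in CBPi (0.842%) and 41 in FSK (5.75%). Of the 54 members with no vehicle peak, 0 gained a gene-end peak in EZH2i, where 2.09% of all such genes did. In CBPi 3 did (5.56%), against 3.99% of all such genes, and in FSK 1 did (1.85%), against 2.89%. With all lists cut to the same length the losses were 4 in EZH2i, 1 in CBPi and 8 in FSK, and the gains 4 in EZH2i, 12 in CBPi and 5 in FSK. In the larger-area 50% of each list the losses were 30 in EZH2i, 5 in CBPi and 28 in FSK, and 8 members in CBPi and 4 in FSK gained a gene-end peak. The 3 treated lists were set against the same vehicle list, so their losses are not independent of each other.

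The members whose gene-end peak left the EZH2i list had small vehicle peaks. ZNF480 had an area of 480.6 in CBPi and 579.9 in vehicle, and no gene-end peak in EZH2i or FSK. ZNF135 had 645.9 in CBPi and 555.4 in vehicle, and likewise none in EZH2i or FSK. ZNF227 had 429.2 in CBPi, 231.1 in FSK and 456.3 in vehicle, and its gene-end peak was absent from EZH2i alone. Its listed start lies 4985 bp inside the gene and had a vehicle peak within 1 kb. The ZNF227 window still held 1 peak in EZH2i, and 0 of its other peaks were lost there. ZNF222 had 554.5 in CBPi, 252.2 in FSK and 373.3 in vehicle, again with none in EZH2i. ZNF382, a KRAB zinc finger gene, and ZNF529 start close together on opposite strands and share 1 peak, with an area of 843.5 in CBPi, 697.3 in FSK and 370.4 in vehicle, so that the loss of this peak in EZH2i counts for both genes. The shared vehicle peak lay at chr19:36604692-36605083, with its summit 560 bp upstream of the ZNF382 start and 790 bp inside ZNF529. ZNF561, ZNF266, ZNF875, ZNF415 and ZNF737 also lost their peak in EZH2i, with vehicle areas of 289.2, 307.9, 363.8, 318.1 and 241.9. The twelfth gene, ZNF114, had a vehicle peak of 782.5 that a treated-list peak still overlapped, so that only the border had moved past 1 kb.

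ZNF737 and ZNF415 were the members that lost a gene-end peak itself in CBPi. ZNF737 had a peak of 241.4 in FSK and 241.9 in vehicle, and none in EZH2i or CBPi. ZNF415 had 318.1 in vehicle and none in the 3 treated lists. The third loss counted in CBPi was the moved border at ZNF114. ZNF317 and ZNF426, both between 7.070 and 9.786 Mb, had a gene-end peak in CBPi alone, with areas of 423.0 at chr19:9140238-9140689 and 371.5 at chr19:9538542-9538999. Both ranked in the lower part of the CBPi list, at the 34.4th and 28.7th percentile. The third gain, ZNF575, was a wide CBPi peak of 4779.9 whose border came within 1 kb of the gene's far end and that overlapped a vehicle peak.

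In FSK the genes that lost a peak were ZNF480, ZNF135, ZNF350, ZNF875, ZNF121, ZNF415, ZNF266, ZNF439 and, by its border only, ZNF114. ZNF350 encodes ZBRK1, a KRAB repressor that partners BRCA1. It had an area of 254.5 in EZH2i, 379.9 in CBPi and 395.3 in vehicle. ZNF121 had 338.0 in EZH2i, 733.2 in CBPi and 348.4 in vehicle. ZNF439 had 253.4 in EZH2i, 423.8 in CBPi and 298.1 in vehicle. The 1 gain in FSK, ZNF302, was a peak of 1278.2 that overlapped a vehicle peak, so it too was a moved border.

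ZNF536 stands apart from the rest of the family in its layout. It is expressed mainly in the nervous system, where it is known in mammals to restrain neuronal differentiation, and it spans chr19:30225592-30713586 with no other member within 1 Mb. Its window held 7 peaks in EZH2i, 7 in CBPi, 7 in FSK and 12 in vehicle. The large vehicle peaks were kept in each treated list, at chr19:30227206-30228992 with a vehicle area of 2661.1, chr19:30663951-30665109 with 2240.7 and chr19:30719356-30720143 with 1489.9. The gene-end peak had an area of 353.2 in EZH2i, 374.1 in CBPi, 317.4 in FSK and 858.4 in vehicle, and ranked at the 29.8th percentile in EZH2i, the 29.1th in CBPi, the 25.2th in FSK and the 63.7th in vehicle. The lost peaks of ZNF536 had vehicle areas of 218.2 to 626.6, where the median area of the vehicle list was 581.4. Of these, 5, between 30254176 and 30696937, were listed in vehicle alone. The EZH2i list held a gained peak in the gene at chr19:30648421-30648699, with an area of 215.6, and the FSK list a different one at chr19:30344608-30345058, with 340.0.

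ZNF331, an imprinted gene, was the member with the most gained peaks in CBPi. It tied for the most with ZNF536 in EZH2i and with ZNF254 in FSK. A peak inside the gene, near a listed start, had an area of 256.7 in EZH2i (chr19:53554140-53554820), 401.7 in CBPi (chr19:53553999-53554825) and 274.9 in FSK (chr19:53554340-53555036), with none in vehicle. A second, also near a listed start, had 376.3 in CBPi (chr19:53537552-53538579) and 260.2 in FSK (chr19:53538015-53538900), with none in EZH2i or vehicle. The single vehicle peak of its window, at chr19:53520602-53521361 with an area of 1038.3, was kept in each treated list. In FSK the window of ZNF254 gained 2 peaks, of which the larger had an area of 1286.8 and ranked at the 77.8th percentile of that list. Beside ZNF444 a gained flank peak had an area of 460.1 in CBPi and 534.3 in FSK. ZNF83, ZNF784 and ZNF114 lost 2 other peaks each in EZH2i, and ZNF577 lost 1 in CBPi and 2 in FSK.

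Members less than 1 Mb apart were joined into blocks, which gave 16, of which 9 held at least 5 members. In vehicle the share of open ends ran from 40.0% (2 of 5 members) to 92.3% (24 of 26) over these 9 blocks. The block ZNF628 to ZNF446, from 55.48 to 58.49 Mb near the end of the long arm, had a gene-end peak at 50 of 60 members in EZH2i, 51 in CBPi, 50 in FSK and 51 in vehicle (85.0%). The block ZNF565 to ZNF573 (36.18 to 37.78 Mb) had 21 of 26 in EZH2i, 24 in CBPi, 23 in FSK and 24 in vehicle. The block ZNF101 to ZNF254 (19.67 to 24.13 Mb), which holds ZNF91, ZNF93 and ZNF208, had 23 of 37 in EZH2i, 23 in CBPi, 24 in FSK and 24 in vehicle (64.9%, interval 48.8 to 78.2). Where members of that block did have a peak it ranked high, with a median at the 79.6th percentile of the vehicle list. Its members without a peak in any list included ZNF208, ZNF257, ZNF676, ZNF729, ZNF98, ZNF492 and ZNF99. Neighbouring members can be close copies, but blocks were drawn by distance alone and similarity was not measured. How the authors treated reads that map to several places is not given in the sources used here. Its part in these shares was not tested.

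The block ZNF557 to ZNF846 (7.070 to 9.786 Mb) had the widest range between lists of these 9 blocks. It had a gene-end peak at 8 of 16 members in EZH2i, 12 in CBPi, 8 in FSK and 10 in vehicle (62.5%, interval 38.6 to 81.5), and the intervals of the 4 lists overlapped. The median of its vehicle gene-end peaks lay at the 56.4th percentile of the list, the lowest of these 9 blocks. The block ZNF653 to ZNF791 (11.48 to 12.63 Mb) had 21 of 25 in EZH2i, 21 in CBPi, 20 in FSK and 21 in vehicle. The block ZNF575 to ZNF296 (43.53 to 45.08 Mb) had 16 of 24 in EZH2i, 19 in CBPi, 18 in FSK and 18 in vehicle, and the block ZNF175 to ZNF331 (51.57 to 53.58 Mb) had 31 of 41 in EZH2i, 32 in CBPi, 30 in FSK and 33 in vehicle.

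**Figure D4:**
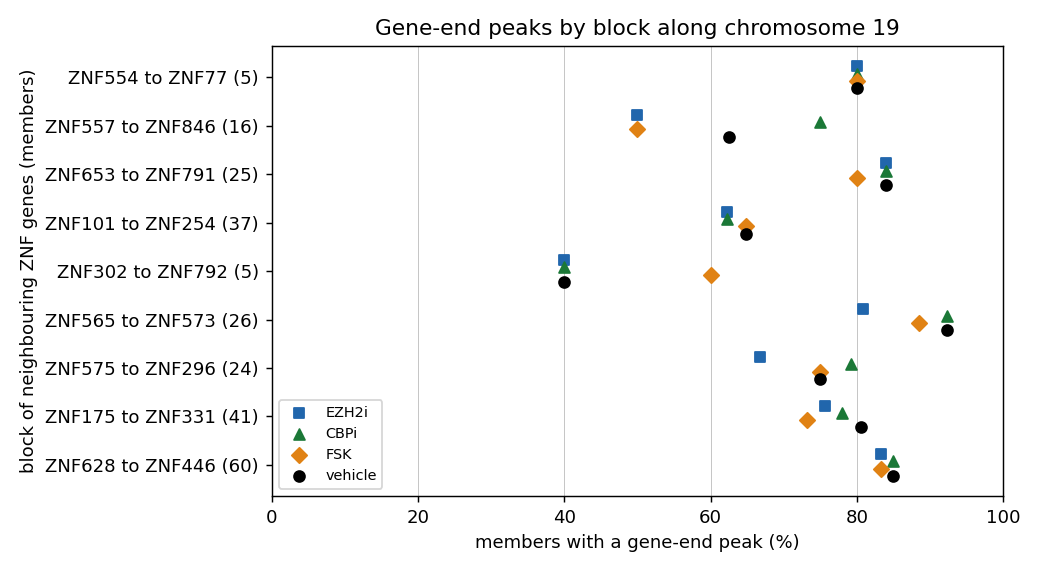
Share of members with a gene-end peak (%) in the blocks of neighbouring ZNF genes along chromosome 19, with 1 marker per peak list and the number of members beside each block. The block ZNF557 to ZNF846 spreads from 50.0% in EZH2i and FSK to 75.0% in CBPi, with 62.5% in vehicle; the block ZNF628 to ZNF446 stays between 83.3% and 85.0%.

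The promoters of the family differed in sequence from those of the other genes of the chromosome. Windows of 300 bases, from 250 before to 50 after the start, were searched on both strands in 219 ZNF promoters, 966 promoters of other chromosome 19 genes and 15813 promoters of all protein-coding genes. The ETS core CCGGAAG was present in 99 ZNF promoters (45.2%, interval 38.8 to 51.8), against 124 of the other chromosome 19 promoters (12.8%, 10.9 to 15.1) and 14.1% of all promoters. CCAAT was present in 118 (53.9%, interval 47.3 to 60.4), against 361 (37.4%, 34.4 to 40.5) and 36.4%. The GC box GGGCGG was present in 147 (67.1%), against 635 (65.7%) and 58.3%, and the intervals of the ZNF genes and the other chromosome 19 genes overlapped. The AP-1 site TGANTCA was present in 16 (7.31%), against 46 (4.76%) and 5.70%. The CRE TGACGTCA was present in 7 (3.20%), against 33 (3.42%) and 2.56%. The NRF1 motif was found in 6 ZNF promoters (2.74%) and the YY1 motif in 2 (0.913%), against 24 (2.48%) and 23 (2.38%) of the other chromosome 19 promoters. Median GC content was 60.0% in the ZNF windows, against 64.0% in the other chromosome 19 windows. Since the genes arose by duplication their promoters share ancestry, and the intervals, which treat them as independent, are too narrow. A match is a string of letters and not a measured binding site.

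**Figure D5:**
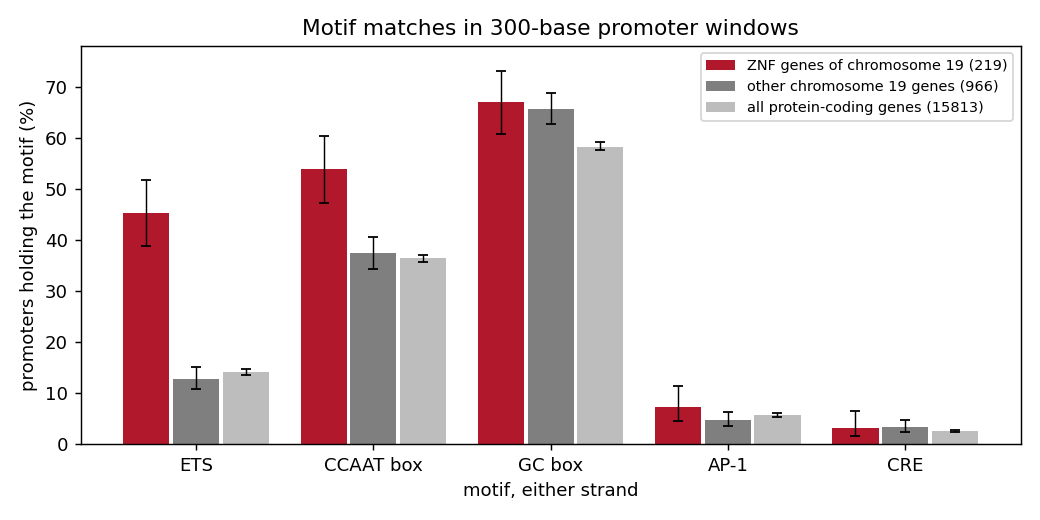
Share of 300-base promoter windows (%) that hold each motif on either strand, for ZNF genes of chromosome 19, other chromosome 19 genes and all protein-coding genes; error bars are Wilson 95% intervals. The ETS core stands at 45.2% in ZNF promoters against 12.8% in other promoters of the chromosome.

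The 111 ETS matches in ZNF promoters lay close to the start, with a median first base at -18.0 (middle 50% from -34.0 to 3.00), against -51.0 in other chromosome 19 promoters. In the sequences shown, the match begins at -23 in ZNF737 and -12 in ZNF580, and the palindrome of ZNF787 begins at -168. ZNF787 also holds a match close to the start, with its first base at 1, which lies past the upstream bases shown. The share of promoters with a match was 86 of 189 in members with a vehicle peak at that start (45.5%, interval 38.6 to 52.6), and 13 of 30 in members without (43.3%, interval 27.4 to 60.8). Among other chromosome 19 genes 106 of 546 promoters with a peak held a match (19.4%, interval 16.3 to 22.9), against 18 of 420 without (4.29%, interval 2.73 to 6.67). By block the match was found in 21 of 29 promoters of ZNF101 to ZNF254 (72.4%), 22 of 34 of ZNF175 to ZNF331 (64.7%), 33 of 55 of ZNF628 to ZNF446 (60.0%) and 2 of 24 of ZNF653 to ZNF791 (8.33%). Blocks with few and with many matches both had mostly open ends. Of 82 members with a match and a vehicle gene-end peak, 2 lost that peak in EZH2i, 1 in CBPi and 0 in FSK. Of 93 members with no match and a vehicle peak, 8 lost it in EZH2i, 1 in CBPi and 7 in FSK. Over all genes with a vehicle gene-end peak, 4.60% lost it in EZH2i, 2.35% in CBPi and 4.94% in FSK. For CCAAT, 93 members with a match lost 3 peaks in EZH2i, 1 in CBPi and 3 in FSK. The 82 without CCAAT lost 7 in EZH2i, 1 in CBPi and 4 in FSK. These splits were not tested. The median vehicle rank was the 75.1th percentile with an ETS match and the 76.3th without. A median does not compare the small peaks, among which the losses fell.

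The CRE was held by ZNF266, ZNF426, ZNF121, ZNF561 and ZNF562, all in the block ZNF557 to ZNF846, and by ZNF543 and ZNF547 in the block ZNF628 to ZNF446. In the 3 promoters shown above it begins at -21 in ZNF426, -50 in ZNF121 and -23 in ZNF561. ZNF266 had a gene-end area of 609.4 in CBPi and 307.9 in vehicle, and none in EZH2i or FSK. ZNF561 had 858.5 in CBPi, 212.8 in FSK and 289.2 in vehicle, and none in EZH2i. ZNF562 had 585.2 in EZH2i, 923.9 in CBPi, 404.5 in FSK and 742.8 in vehicle. Together with ZNF426 and ZNF121 above, all 5 members had a peak in CBPi, whereas ZNF121 and ZNF562 did in EZH2i, ZNF561 and ZNF562 in FSK, and all but ZNF426 in vehicle. At their matching starts the 2 members of the other block had large peaks in each list: ZNF543 had 1425.9 in EZH2i, 1626.7 in CBPi, 1462.1 in FSK and 1781.0 in vehicle, and ZNF547 had 1577.1 in EZH2i, 2396.5 in CBPi, 1497.9 in FSK and 2154.6 in vehicle. The 5 lie near each other, with ZNF560, which holds no match and had no gene-end peak in any list, between ZNF266 and ZNF426. The window of ZNF560 held 1 peak in CBPi, a gained one, and 0 in EZH2i, FSK and vehicle. Its listed start lies 8076 bp inside the gene. ZNF317, in the same block and also without a match, had a gene-end peak in CBPi alone. The 5 with a match were grouped after the values were known, so no test was made.

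Of 26 genes for KRAB cofactors and heterochromatin proteins, 24 had a gene-end peak in EZH2i, 24 in CBPi, 23 in FSK and 24 in vehicle, where 65.2% of all protein-coding genes in EZH2i, 67.3% in CBPi, 65.2% in FSK and 67.6% in vehicle had a gene-end peak. TRIM28, the KRAB corepressor, which itself lies on chromosome 19, had an area of 2104.5 in EZH2i, 3081.2 in CBPi, 1468.2 in FSK and 2005.8 in vehicle. SETDB1 had 1128.2 in EZH2i, 2109.8 in CBPi, 973.6 in FSK and 1677.7 in vehicle. CHD3, a subunit of the NuRD complex that binds TRIM28, was the only gene of this list whose gene-end peak was not in the same state in all 4 lists, with 550.5 in EZH2i, 1337.4 in CBPi and 840.7 in vehicle and no gene-end peak in FSK. Of all genes with a vehicle gene-end peak, 4.94% had none in FSK. ATF7IP2 and UHRF1 had no gene-end peak in any list.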

How the data were processed

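ATAC-seq peaks of NCI-H295R were deposited as 1 narrowPeak list per group of 2 libraries, on build hg38. Bowtie2, Genrich and deepTools 2.0 are named, without roles, per the submitters' processing notes. The combination of the 2 libraries, read filters, any Tn5 shift, the handling of multi-mapping reads and the calling cut-off are not stated in the labels or headers used here, and depth is unknown. Each peak carries a signal that the authors deposited as the area of significance (at least 200.0 in each list), a score that the authors deposited and that follows area divided by width, and the deposited −log10 p of the summit. Only the area was used, within a list.

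Genes came from RefSeq tables of GRCh38.p14, the build of the promoter windows too. Of the 250 members, 219 matched a promoter entry, which gave strand and starts. Peaks of a treated list and of vehicle were matched by an overlap of 1 bp or more; unmatched vehicle peaks were called lost and unmatched treated peaks gained. Shares carry Wilson 95% intervals and differences Newcombe intervals, made with statsmodels 0.14.6 in Python 3.11.15 (pandas 2.3.3). The overlap and assignment code was tested on simulated peaks. Named genes were, per treatment, up to 6 members losing and 6 gaining a gene-end peak (largest area), up to 4 with the most lost other peaks and 4 with the most gained peaks, plus the 6 largest and the 4 most peak-rich members in vehicle and any cofactor gene that lost or gained a gene-end peak; further members were named after their values were seen. The members, lists and motifs were chosen with earlier results of these data known. Genome sequence beyond the promoter windows and protein sequence were not used here, so the planned count of finger repeats was not run.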

Additional observations from a re-analysis of the deposited data

How the results depend on the processing

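Over 13 alternative settings, 171 of 201 recomputed values stayed within the margin set for them. No difference from the background had a main interval that excluded 0, and the gene-end difference changed sign in at least 1 treatment with the larger-area 50% of each list, equal list length, ends at 500 bp, transcript starts alone and area-weighted background. With 50% of the vehicle peak covered, the gained share of ZNF peaks in CBPi was 8.90%. With the larger-area 50% of each list, ZNF gene-end peaks were kept at 82.7% in EZH2i and 83.9% in FSK, the difference ZNF minus other chromosome 19 genes turned to -8.51 and -5.53 percentage points in EZH2i and FSK, 30, 5 and 28 members lost a gene-end peak in EZH2i, CBPi and FSK, and 8 and 4 gained one in CBPi and FSK; the cause was not tested. With lists of equal length (41086 peaks), the kept shares of ZNF gene-end and other peaks were 98.4% and 90.3% in EZH2i and 100.0% and 96.8% in CBPi, 4 members in EZH2i and 1 in CBPi lost a gene-end peak, 4, 12 and 5 gained one in EZH2i, CBPi and FSK, and the gained share was 4.18% in EZH2i and 9.96% in CBPi; this setting shortens the vehicle list most. With gene ends drawn at 500 bp or at 2 kb, 0 members gained a gene-end peak in FSK. Against the windows of genes on other chromosomes, the other-peak difference was 22.3 points in EZH2i, 25.3 in CBPi and 21.6 in FSK, and the gene-end difference 3.76 in CBPi. Of the 78 ZNF other peaks in vehicle, 43 lay near a listed start, a share not counted for other chromosomes. The remaining 35 were kept at 51.4% in EZH2i, 80.0% in CBPi and 68.6% in FSK. Over all chromosomes non-end peaks were kept at 54.2%, 62.0% and 63.6%. Without ZNF536, chosen after seeing the data, other peaks were kept at 98.5% in CBPi and 91.0% in FSK, and the CBPi other-peak difference was 7.54 points. That difference too mixes peaks near listed starts with peaks away from them.

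No paired analysis was possible because each group was deposited as 1 list, and for the same reason no replicate was left out. Lists of unknown depth limit every loss or gain of a peak near the smallest deposited area.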
